A study of Mus musculus with 6 samples.

Results

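The liver's triglyceride and VLDL assembly enzymes were taken as the 8 genes *Gpam*, *Agpat2*, *Lpin1*, *Lpin2*, *Dgat1*, *Dgat2*, *Mttp* and *Mogat1*, and every probe carrying one of these symbols was kept whatever its value. Of these genes, 7 had probes, 9 in all among the 25697 probes of the bead array, and *Mogat1* was not analysed here. The probes were read in whole livers of 6 male FVB mice (FVB/N in the methods) at postnatal day 6, 3 hSRY-OFF and 3 hSRY-ON. All of the mice carried the Signalox-hSRY responder, a transgene at the *H11* locus driven by the broadly active CAG promoter. In the hSRY-OFF mice the cassette was not recombined, so that the promoter drove the red fluorescent protein DsRed2. The methods give no dam or litter for the arrayed hSRY-OFF mice, so dam and litter cannot be told apart from the group. In the hSRY-ON mice Cre from the oocyte of a *Ddx4-Cre* mother had removed DsRed2, which placed FLAG-tagged human SRY and EGFP under the same promoter, and the arrayed pups were chosen to lack the *Ddx4-Cre* transgene itself. Activation of the transgene was therefore not directed to hepatocytes, a single responder line was used, and the level of the transgene was not analysed here. In liver sections the paper describes SRY protein as specific to hepatocyte nuclei. Whether other liver cells made SRY was not tested here. The paper reports that hSRY-ON pups suckled little, lacked milk in the stomach, grew slowly and had fatty livers. Feeding and liver fat are not given for the arrayed pups, and their part in the differences below was not tested.

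Hepatocytes build triglyceride by adding fatty acids stepwise to glycerol 3-phosphate. GPAM attaches the first fatty acid, AGPAT2 attaches the next to give phosphatidic acid, lipins remove the phosphate to give diacylglycerol, and DGAT1 or DGAT2 adds the last fatty acid. MTTP then transfers the finished lipid to apolipoprotein B, which forms the very-low-density lipoprotein (VLDL) particle that the liver secretes. MOGAT1 enters the same route from monoacylglycerol.

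Between 10318 and 10762 probes were detected per array at a detection p under 0.01, and the arrays correlated at 0.965 to 0.993 within groups and at 0.912 to 0.939 between them. Liver identity was read from a fixed list of hepatocyte markers, of which 8 of 9 genes were detected and *Tat* was not. Their summed normalized intensity was 119229 to 128269 in hSRY-OFF and 110847 to 127716 in hSRY-ON livers, so the ranges overlapped. Single hepatocyte probes did not all hold their level. By limma 4 of the 10 tested, from 3 genes, were lower past an adjusted p of 0.05, where 17.2% of all tested probes were. *Alb* was among them at 2.16-fold lower (adjusted p = 0.00849). None of the 7 adipocyte markers was detected on any array. The summed stellate cell markers ran from 9728 to 11140 in hSRY-OFF and from 17378 to 19935 in hSRY-ON livers, and the Kupffer cell markers from 9793 to 12563 and from 7443 to 9278. Neither list moved in a single direction. By limma 5 of 10 stellate probes, from 2 genes, were higher and 2 were lower, with log2 differences from -1.66 to 3.13. Of 10 Kupffer probes 1 was higher and 4, from 3 genes, were lower, where 15.8% and 17.2% of all tested probes were. The neutrophil sum reached 95045 in hSRY-ON replicate 3 against 30887 and 35797 in the other hSRY-ON livers. The erythroid and endothelial sums overlapped between the groups, but the erythroid sum is dominated by *Hba-a1*, the brightest probe on every array, which quantile normalization sets to the same value throughout. By the same test 4 of 9 erythroid probes (median log2 difference 0.93) and 3 of 6 endothelial probes (median 0.44) were higher, where 15.8% of all tested probes were. These higher probes came from 2 erythroid genes and 2 endothelial genes. The part of these cells in the results below was not tested, and in whole tissue fewer cells of a type and less RNA per cell cannot be told apart.

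The enzymes did not all move one way. Of the 7 member probes with enough signal to test, 3 were higher in hSRY-ON livers (*Gpam*, *Lpin1* and *Lpin2*), 2 were lower (*Agpat2* and *Dgat2*) and 2 did not pass the threshold (*Dgat1* and *Mttp*), by limma with Benjamini-Hochberg adjustment over all tested probes. The background was high: 33.1% of the 10734 tested probes passed the same threshold, 15.8% upwards and 17.2% downwards. The groups did not overlap at 4 member probes that were higher and 2 that were lower, where 25.4% and 24.6% of all tested probes were separated in that way. The median absolute log2 difference was 1.19 over the 7 probes and 0.34 over all tested probes. The members were chosen with earlier results of these data known, so these contrasts are a description.

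**Figure D1:**
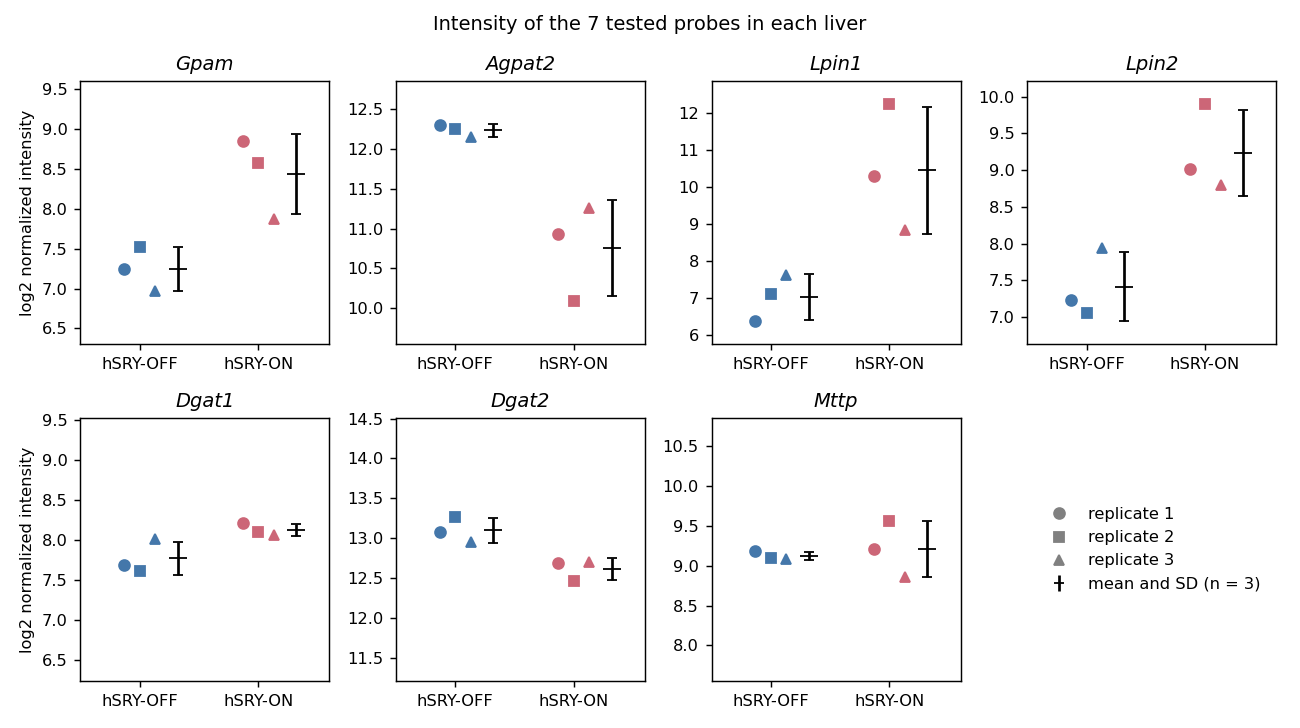
Normalized log2 intensity of the 7 tested probes in each liver, by group, with a symbol for each replicate and bars for the mean and SD (n = 3), each panel on its own axis. The hSRY-ON values lie wholly above the hSRY-OFF values at Gpam, Lpin1, Lpin2 and Dgat1, wholly below them at Agpat2 and Dgat2, and across them at Mttp.

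*Gpam* (ILMN_2655954, GRCm38.p6 chr19:55067635-55127319) encodes the mitochondrial acyltransferase that starts the pathway. Its log2 intensity was 7.24, 7.52 and 6.97 in the hSRY-OFF livers and 8.85, 8.58 and 7.88 in the hSRY-ON livers. Every hSRY-ON liver was above every hSRY-OFF liver, the third hSRY-ON replicate by the smallest margin. The means were 7.24 ± 0.27 and 8.43 ± 0.50 (SD, n = 3 each), a log2 difference of 1.19 ± 0.26 (SE, 95% interval 0.57 to 1.81, adjusted p = 0.0134 by limma), or 2.28-fold. The probe was dim, at 224 to 339 raw intensity units in hSRY-OFF and 325 to 651 in hSRY-ON livers, where the array medians lay between 147 and 165. The call was lost without hSRY-OFF replicate 1, and over the 13 alternatives the adjusted p ran from 0.00200 to 0.0522. With no background correction the difference was 0.78.

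*Agpat2* (ILMN_1215901, chr2:26593057-26604417) encodes the acyltransferase of the following step and moved the other way. The hSRY-OFF livers were at 12.30, 12.24 and 12.14 and the hSRY-ON livers at 10.93, 10.09 and 11.26 on the log2 scale. The hSRY-OFF livers were close together and the hSRY-ON livers were all lower and widely spread. From 12.23 ± 0.08 to 10.76 ± 0.60 (SD, n = 3 each), the probe fell by 1.47 on the log2 scale (SE 0.28, 95% interval -2.12 to -0.82, adjusted p = 0.00739 by limma), 2.77-fold lower. It stayed past the threshold under all 13 alternatives tried, with adjusted p from 0.00240 to 0.0351.

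The lipins, which dephosphorylate phosphatidic acid, had the 2 largest rises among the members. *Lpin1* (ILMN_3111744, chr12:16535669-16653903), whose product also enters the nucleus as a transcriptional coactivator, was at 6.36, 7.10 and 7.60 in hSRY-OFF livers and at 10.28, 12.24 and 8.81 in hSRY-ON livers. All 3 hSRY-ON livers lay above the hSRY-OFF livers, but they were far apart, with replicate 2 highest and replicate 3 lowest. The means were 7.02 ± 0.63 and 10.45 ± 1.72 (SD, n = 3 each), a log2 difference of 3.43 ± 0.79 (SE, 95% interval 1.59 to 5.27, adjusted p = 0.0149 by limma), or 10.8-fold. This absolute difference was larger than those of 99.6% of all tested probes. The adjusted p rose to 0.0610 without hSRY-OFF replicate 1 and to 0.0508 without hSRY-OFF replicate 2. The size depended on single livers and on the background, with a difference of 2.53 without hSRY-ON replicate 2 (adjusted p = 0.0123), 4.26 without hSRY-ON replicate 3 (adjusted p = 0.00278) and 2.61 with no background correction (adjusted p = 0.0222). Both other *Lpin1* probes, ILMN_2592546 and ILMN_2738580, were detected on 0 arrays and carried no test, so the rise rests on 1 of 3 probes.

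*Lpin2* (ILMN_1220680, chr17:71183532-71249818), the lipin that predominates in adult liver, was at 7.24, 7.06 and 7.94 in hSRY-OFF livers. In hSRY-ON livers it was at 9.01, 9.90 and 8.79. Every hSRY-ON liver was higher, replicate 2 again the highest. The log2 means were 7.41 ± 0.47 and 9.24 ± 0.59 (SD, n = 3 each) and differed by 1.82 ± 0.34 (SE, 95% interval 1.04 to 2.61, adjusted p = 0.00659 by limma), or 3.54-fold. The call held under all 13 alternatives, with adjusted p from 0.00273 to 0.0331. *Lpin3*, the remaining lipin, was detected on 0 arrays and was not tested in the main fit. Without the detection filter its difference was 0.62 (adjusted p = 0.0127 by limma). Its raw intensity was only 136 to 182, so this value is not read as a rise.

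The 250 bases upstream of a RefSeq start (GRCm38.p6) are shown for *Agpat2*, *Lpin1* and *Lpin2*, the members with the largest changes. These neighbouring steps of the pathway moved in opposite directions. The windows are chr2:26604418-26604667 on the minus strand for *Agpat2*, chr12:16610967-16611216 on the minus strand for *Lpin1*, a start inside the gene's span, and chr17:71183282-71183531 on the plus strand for *Lpin2*. They read 5′ to 3′, and capitals mark an E-box (CACGTG), a motif bound by helix-loop-helix factors such as USF.
Agpat2: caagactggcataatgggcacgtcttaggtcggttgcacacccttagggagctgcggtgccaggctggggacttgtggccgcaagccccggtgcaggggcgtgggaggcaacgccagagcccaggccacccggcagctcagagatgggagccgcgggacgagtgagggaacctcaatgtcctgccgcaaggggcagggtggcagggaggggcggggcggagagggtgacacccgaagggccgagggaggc
Lpin1: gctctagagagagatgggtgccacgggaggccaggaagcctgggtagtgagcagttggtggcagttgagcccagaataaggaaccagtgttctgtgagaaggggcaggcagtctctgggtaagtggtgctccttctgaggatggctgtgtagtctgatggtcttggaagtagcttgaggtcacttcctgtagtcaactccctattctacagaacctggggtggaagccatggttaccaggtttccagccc
Lpin2: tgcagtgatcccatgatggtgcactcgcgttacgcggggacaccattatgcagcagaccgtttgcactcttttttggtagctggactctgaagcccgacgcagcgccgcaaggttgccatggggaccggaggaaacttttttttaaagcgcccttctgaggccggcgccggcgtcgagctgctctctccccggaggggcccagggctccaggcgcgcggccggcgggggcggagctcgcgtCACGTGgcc
The E-box of *Lpin2* was the only match among the 9 upstream windows listed for 6 of the members (*Dgat1* and *Dgat2* had none listed), and 6.02% of the 32851 windows of the same length held one. Of the 3 windows listed for *Lpin2*, only the one shown held it. The others, chr17:71183728-71183977 and chr17:71204404-71204653, held no match, so the E-box belongs to 1 of the listed starts. The search covered both strands for CACGTG, the HMG-box core AACAAT (in 9.42% of all windows), the sterol regulatory element TCACNCCAC (1.05%), the cAMP response element TGACGTCA (1.55%) and TATAAA (12.4%). The *Agpat2* window was 69.2% G and C, against 54.8% for *Lpin1* and 65.2% for *Lpin2*.

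The enzymes of the last acylation differed less. *Dgat1* (ILMN_2807284, chr15:76502012-76512021) was at 7.68, 7.61 and 8.01 in hSRY-OFF and at 8.21, 8.09 and 8.06 in hSRY-ON livers. The groups did not overlap, although hSRY-OFF replicate 3 came close to the hSRY-ON livers. The log2 difference of 0.35 ± 0.14 (SE, 95% interval 0.02 to 0.69) did not pass the threshold (adjusted p = 0.0915 by limma). Without hSRY-OFF replicate 3 it was 0.48 and passed (adjusted p = 0.0463).

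*Dgat2* (ILMN_1219915, chr7:99153663-99182713), structurally unrelated to *Dgat1* and tied mainly to newly made fatty acids, was bright in every liver. It was at 13.08, 13.26 and 12.96 in hSRY-OFF and at 12.69, 12.46 and 12.70 in hSRY-ON livers. All 3 hSRY-ON livers were lower, and the gap between the groups was small. The means of 13.10 ± 0.15 and 12.61 ± 0.14 (SD, n = 3 each) differed by -0.48 ± 0.14 on the log2 scale (SE, 95% interval -0.80 to -0.16, adjusted p = 0.0310 by limma), 1.40-fold lower. The call was lost without any of 4 livers. The adjusted p was then 0.0914 for replicate 1 and 0.110 for replicate 2 of the hSRY-OFF group, and 0.0596 and 0.0720 for the same numbers of the hSRY-ON group.

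*Mttp* (ILMN_2628594, chr3:138089855-138143418), which loads lipid onto the nascent VLDL particle, was at 9.18, 9.10 and 9.09 in hSRY-OFF livers and at 9.21, 9.56 and 8.85 in hSRY-ON livers. The hSRY-ON livers fell on both sides of the tightly grouped hSRY-OFF livers. The difference was 0.08 ± 0.18 (SE, adjusted p = 0.760 by limma), and its 95% interval, -0.35 to 0.51, leaves room for a change of either sign. It was -0.092 without hSRY-ON replicate 2.

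**Figure D2:**
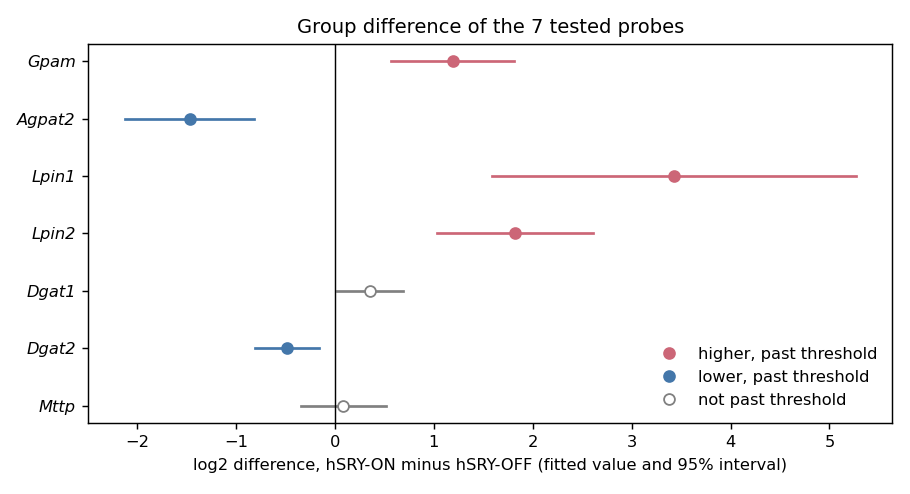
Fitted log2 difference, hSRY-ON minus hSRY-OFF, of the 7 tested probes, with 95% intervals. Colour and fill mark the probes past the adjusted p threshold. The widest interval is that of Lpin1 (1.59 to 5.27), and the Mttp interval spans 0.

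The livers of the hSRY-ON group were not equally far from the controls. At all 5 member probes that passed the threshold, hSRY-ON replicate 3, the liver with the high neutrophil marker sum, was the one nearest to the hSRY-OFF mean. At *Dgat2* replicate 1 was about as near (-0.408 against -0.403). Replicate 3 was also the nearest at *Dgat1*, while at *Mttp* replicate 1 was. How often it was nearest over all tested probes was not counted, so this is not read as a trait of the members. Over the whole table, 37.6% of tested probes were called without hSRY-ON replicate 3, against 33.1% with all arrays. A link to the neutrophil sum was not tested. Replicate 2 was the farthest at *Agpat2*, *Lpin1*, *Lpin2*, *Dgat2* and *Mttp*, and replicate 1 at *Gpam* and *Dgat1*. The SD in hSRY-ON livers was 7.66 times that in hSRY-OFF livers at *Agpat2*, 7.08 times at *Mttp*, 2.75 times at *Lpin1*, 1.83 times at *Gpam* and 1.25 times at *Lpin2*. At *Dgat1* and *Dgat2* it was smaller in hSRY-ON livers, 0.357 and 0.881 times. With 3 livers a group these ratios are a description.

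Other enzymes of the same reactions were also read. Of 11 tested probes for further acyltransferase and phosphatase isoforms, 3 were higher and the rest did not pass the threshold. That is 27.3% called, near the 33.1% of all tested probes, and the median log2 difference was 0.21 against 0.02. *Agpat9*, now *Gpat3*, a microsomal glycerol-3-phosphate acyltransferase, rose by 1.11 ± 0.27 on the log2 scale at ILMN_1241390 (SE, adjusted p = 0.0188), while its other probe had a difference of 0.70 ± 0.26 (adjusted p = 0.0786). *Ppap2c*, now *Plpp2*, a lipid phosphate phosphatase, rose by 0.51 ± 0.13 (adjusted p = 0.0194). The *Agpat9* call was lost under 3 of 13 alternatives (adjusted p up to 0.0715) and the *Ppap2c* call under 5 (adjusted p up to 0.0951). *Mogat2*, the sister of *Mogat1*, was detected on 3 of 6 arrays at one probe, with a difference of 0.31 ± 0.36 (adjusted p = 0.545).

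Of 14 tested probes for genes that supply the glycerol and fatty acid precursors, 1 was higher and 6 were lower, with a median of -0.26, where 15.8% of all tested probes were higher and 17.2% lower. *Gpd1*, which makes the glycerol 3-phosphate that GPAM uses, went from 10.24 ± 0.05 to 8.45 ± 0.52 (SD, n = 3 each), a fall of 3.44-fold (adjusted p = 0.00219 by limma). *Elovl5*, an elongase of polyunsaturated fatty acids, fell by 1.18 on the log2 scale (SE 0.15, adjusted p = 0.00149). *Acsl4*, an acyl-CoA synthetase that prefers arachidonate, rose by 1.34 ± 0.20 at ILMN_3136205 (adjusted p = 0.00320, and 0.86 with no background correction), whereas its other tested probe differed by 0.19 ± 0.19 (adjusted p = 0.472).

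Downstream, of 16 tested probes for VLDL assembly and secretion, 1 was higher and 7 were lower, with a median of -0.40, beside the same 15.8% and 17.2% of all tested probes. *P4hb*, the protein disulfide isomerase that forms the MTTP heterodimer, fell by 0.50 (SE 0.11, adjusted p = 0.0119), although *Mttp* itself did not pass the threshold. *Tm6sf2*, required for lipid loading of VLDL, fell by 1.08 (SE 0.14, adjusted p = 0.00158). *Pla2g12b*, another gene of VLDL lipidation, fell by 1.26 (SE 0.13, adjusted p = 0.000752). *Apoc3*, an apolipoprotein carried on VLDL, was the 1 probe that rose, by 1.35 ± 0.13 (adjusted p = 0.000485). *Apob* had no probe under that symbol and was not analysed here.

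Of 25 tested probes for transcriptional regulators of the pathway, 6 were higher and 6 lower, 48.0% called in all against 33.1% of all tested probes. *Srebf1*, the sterol-responsive activator of fatty acid synthesis, is counted in the 6 lower and in the 48.0%. It passed the detection filter through the hSRY-OFF arrays alone. The 48.0% is therefore not read as an excess over all tested probes, and the call of *Srebf1* is not read as a test. At ILMN_2792089 its raw intensity was 482, 480 and 303 in hSRY-OFF livers, all detected, and 165, 155 and 162 in hSRY-ON livers, none detected. A further *Srebf1* probe, ILMN_2696876, did not pass the detection filter. Without that filter its difference was 0.03 (adjusted p = 0.914 by limma). *Mlxipl*, which encodes the glucose-responsive factor ChREBP, fell by 1.70 (SE 0.11, adjusted p = 0.000149). The genes of the coactivators PGC-1 alpha and PGC-1 beta rose, *Ppargc1a* by 1.70 ± 0.53 (adjusted p = 0.0448) and *Ppargc1b* by 1.68 ± 0.34 (adjusted p = 0.00970). The *Ppargc1a* call was lost under 9 of 13 alternatives, with adjusted p from 0.0139 to 0.145, and its difference was 1.09 without hSRY-ON replicate 2. With no background correction the differences were 1.05 for *Ppargc1a* and 1.09 for *Ppargc1b*. *Insig2*, which holds SREBP in the endoplasmic reticulum, rose at all 3 of its probes, by 2.49 ± 0.19 at ILMN_1234858 (adjusted p = 0.000250), 1.29 at ILMN_1216822 and 1.48 at ILMN_2690256. The first of these was 1.64 with no background correction.

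**Figure D3:**
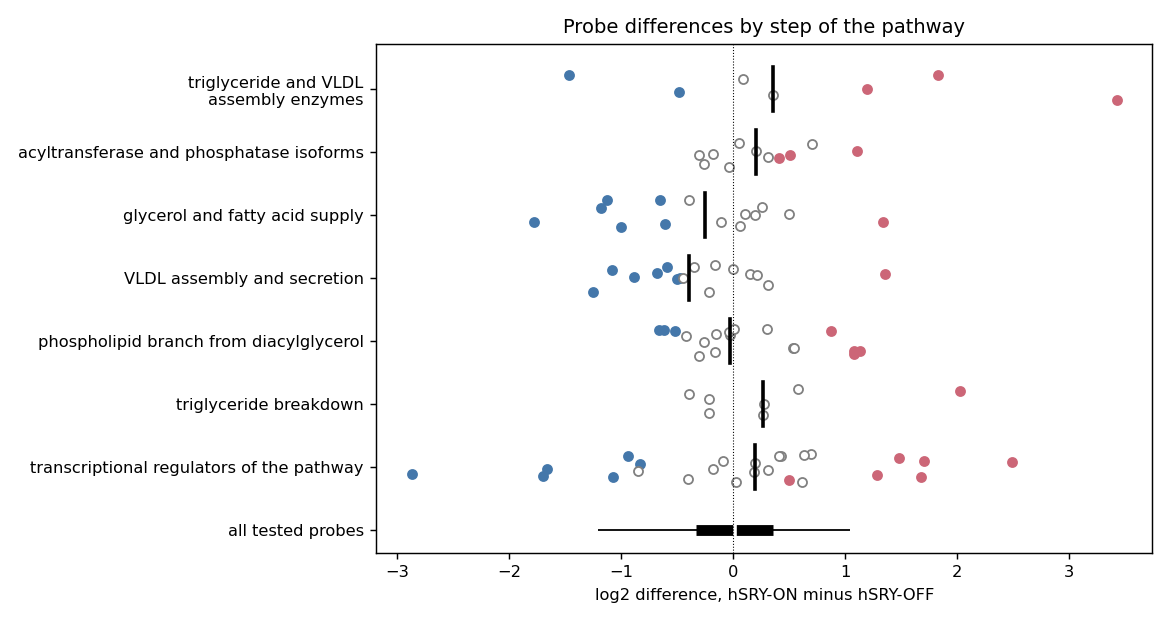
Fitted log2 difference, hSRY-ON minus hSRY-OFF, of each tested probe (points) by step of the pathway, red where called higher, blue where called lower and open where not past the threshold, with a black bar at each median and, for all tested probes, a thick bar between the quartiles (-0.33 to 0.35) and a thin line from -1.20 to 1.04 that leaves out the 5% at either end. The VLDL assembly probes centre on a median of -0.40 and the isoform probes on 0.21, while the 7 member probes reach from -1.47 to 3.43.

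**Figure D4:**
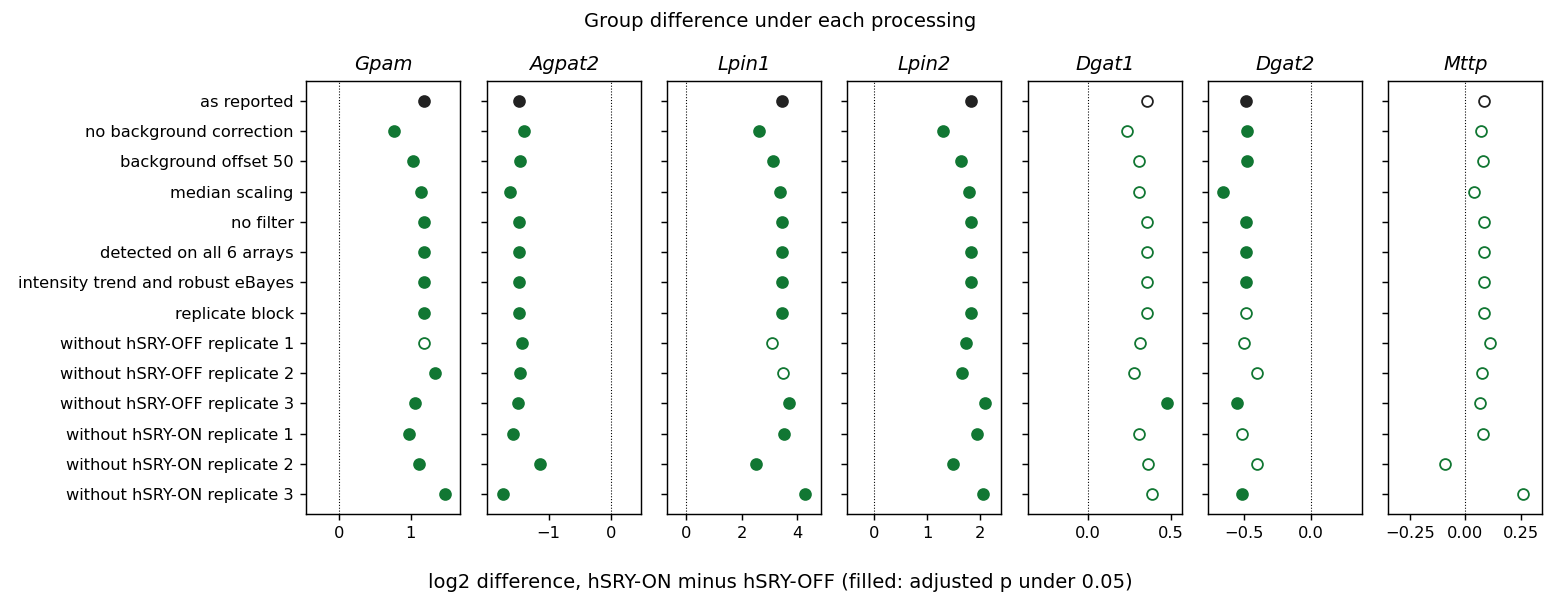
Fitted log2 difference of each tested member probe under each alternative processing. Filled points have an adjusted p under 0.05 and each panel has its own axis. Agpat2 and Lpin2 are filled throughout, and Mttp is open throughout and changes sign without hSRY-ON replicate 2.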

How the data were processed

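RNA of 6 livers was read on Illumina MouseRef-8 bead arrays. The authors deposited a non-normalized intensity and a detection p-value for each probe and array; the scanner software is not given in the sources used here. The submitters' processing notes name limma and the methods name TCC. Here limma 3.58.1 (R 4.3.3) corrected background by nec with offset 16, inferred from the detection p-values, then quantile normalized and took log2. Probes at detection p under 0.01 on at least 3 of 6 arrays, 10734, were fitted with lmFit and eBayes without covariates. Probes past an adjusted p of 0.05 were called. The code was tested on simulated data. The number of arrays limits the precision.

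Of 18138 symbols, 14307 were current in RefSeq and 2927 matched through 1 older name; positions are RefSeq's. Members and lists were chosen with earlier results of these data known. Besides members and 9 listed genes, each list's 2 largest called rises and falls with groups apart are named. Alternatives were another background, scaling, filter and variance model, a replicate block and leaving out each array.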

Additional observations from a re-analysis of the deposited data

How the results depend on the processing

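*Agpat2* and *Lpin2* kept their calls under all 13 alternatives, and the 7 member probes kept their direction under all of them except *Mttp*, which ran from -0.092 to 0.26 on leaving out 1 array. Leaving out 1 array gave 1 to 4 member probes called higher and 1 to 2 called lower, 9 to 19 and 13 to 24 pathway list probes, and 854 to 1824 and 964 to 2126 of all probes. The lowest totals came without hSRY-OFF replicate 1 (854 higher) and hSRY-OFF replicate 2 (951 higher, 1013 lower). Median scaling gave 2972 calls, of which 40.5% were higher against 47.9% as reported, and moved the median difference of all probes to -0.04. Without a detection filter 3338 of 25697 probes were called. With the replicate number as a block, 1 member probe was called lower, since *Dgat2* lost its call (adjusted p = 0.0699), 3 remained higher, and no other member's call changed. Deviations of same-numbered arrays correlated at 0.0247, 0.0957 and 0.0524, and not every array correlated best with its own number. The numbers were not treated as pairs in the main fit. Whether same-numbered livers shared a litter or batch cannot be told from 3 arrays a group. Signal over background limits the dim probes. With no background correction the difference was 0.78 for *Gpam*, 2.61 for *Lpin1* and 1.30 for *Lpin2*, all still called. Among the named list genes, *P4hb*, *Chpt1* and *Pemt* lost their calls without hSRY-OFF replicate 1 (adjusted p = 0.0582, 0.0566 and 0.0551). So did *Agpat9* at ILMN_1241390, *Ppap2c* and *Ppargc1a* (adjusted p = 0.0693, 0.0600 and 0.145 by limma).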

Other observations

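Diacylglycerol is also the substrate of phospholipid synthesis, and of 18 tested probes for that branch 4 were higher and 3 lower, with a median log2 difference of -0.03. That is 38.9% called, against 33.1% of all tested probes. *Chpt1*, which makes phosphatidylcholine from diacylglycerol, was higher at all 3 of its probes, by 0.87, 1.08 and 1.13 (adjusted p = 0.0364, 0.00400 and 0.0133 by limma). *Chkb*, a choline kinase, rose by 1.07 ± 0.14 (SE, adjusted p = 0.00162). *Pemt*, which makes phosphatidylcholine by methylation in hepatocytes, fell by 0.62 (SE 0.13, adjusted p = 0.0127). *D5Wsu178e*, now *Selenoi*, the ethanolamine phosphotransferase, fell by 0.66 (SE 0.13, adjusted p = 0.00920).

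Among 7 tested probes for triglyceride breakdown 1 was higher and the rest did not pass the threshold. That is 14.3% called, where 33.1% of all tested probes were called and 15.8% were higher. *Pnpla2*, the adipose triglyceride lipase, went from 10.35 ± 0.04 in hSRY-OFF to 12.37 ± 0.70 in hSRY-ON livers (SD, n = 3 each), a rise of 4.07-fold (adjusted p = 0.00356 by limma).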
